A study of Mus musculus with 6 samples.

Results

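The genes described here are 10 regulators of transcription that carry mechanical and growth signals to the nucleus of fibroblasts. On the SRF side they are *Srf*, *Myocd*, *Mkl1* and *Mkl2*, and on the YAP side *Yap1*, *Wwtr1*, *Tead1*, *Tead2*, *Tead3* and *Tead4*. The rule for them is a list of gene names. They are 10 of the 25140 genes in the deposited table, and all 10 were among the 14334 genes that had enough counts to be tested. *Mkl1* and *Mkl2* are the older symbols of *Mrtfa* and *Mrtfb*, and *Wwtr1* encodes TAZ.

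Reads per gene were counted by RNA-seq in 3 vehicle and 3 TGFβ libraries of primary cardiac fibroblasts from the adult heart of C57BL/6 mice, at passage 1. The cells had grown in DMEM with 25 mM glucose and 10% FBS. Per the labels, both groups then spent 16 h in 1% FBS. They next received TGFβ at 10 ng/ml or the vehicle, an agent the labels do not name, for 24 h. For the serum, the study's methods instead give 24 h at 1% FBS ahead of treatment, and 1% FBS while it lasted. The study's methods describe 3 biological replicates of cardiac fibroblasts, whereas its results text calls the cells of this experiment MEFs (mouse embryonic fibroblasts), and the animals behind each replicate are not given. The comparison of TGFβ with vehicle asks how a fibrotic agonist changes gene expression while fibroblasts turn into contractile, matrix-producing myofibroblasts.

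Each library held between 27851677 and 31072338 counts. The libraries are called A, B and C within a group, in the order of their columns, because the column headers carry no replicate number. Expression is given in CPM, counts divided by a library size that TMM factors adjust (on the usual per-million scale), which compares 1 gene across libraries but not genes of different length. A gene was called higher or lower with TGFβ when edgeR's quasi-likelihood test, after Benjamini-Hochberg adjustment over all genes tested, gave an adjusted p under 0.05. All 10 listed markers of cardiac fibroblasts were tested, and their summed level was 35393 to 40381 CPM with vehicle and 39276 to 42779 CPM with TGFβ. Most of that sum was *Col1a1* and *Col1a2*, which were not called (log2 fold changes 0.23 and 0.13). *Col1a1* came close (adjusted p = 0.055, edgeR's quasi-likelihood test), with all TGFβ libraries above all vehicle libraries, while the groups of *Col1a2* overlapped. Of the 10 markers 7 were called lower, where 20.1% of all genes tested were. The 8 markers other than *Col1a1* and *Col1a2* summed to 3908 to 4330 CPM with vehicle and 2493 to 2729 CPM with TGFβ. Of the 8 cardiomyocyte markers in the table, *Actn2*, *Mb* and *Ttn* lay under 0.1 CPM on average, and none of the 3 that could be tested was called. The 8 together were at 38.6 to 59.9 CPM with vehicle and 27.5 to 40.6 CPM with TGFβ, nearly all of it *Tnnt2* (log2 fold change -0.46, SE 0.18, not called). In RNA from a whole culture, fewer cells of a type and less RNA per cell cannot be told apart.

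SRF is a transcription factor that binds the CArG box, a short DNA element in genes of the contractile apparatus and in genes that respond to serum within minutes. Myocardin (*Myocd*) and the myocardin-related factors MKL1 and MKL2 are coactivators of SRF. The related factors are held in the cytoplasm by monomeric actin and are released when actin assembles into filaments, whereas the ternary complex factors of the ELK family compete for the same surface of SRF. YAP and TAZ are coactivators without a DNA-binding domain of their own that work through the TEAD factors, which recognise the sequence CATTCC, and the LATS kinases of the Hippo cascade keep both out of the nucleus. In heart fibroblasts both systems are known for their part in the contractile programme of the myofibroblast.

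Promoter sequence was read from RefSeq (GRCm38.p6) as windows of 250 bases before to 50 after a transcription start, and 7 of the 10 regulators matched an entry. The 250 bases before the start of *Srf* are shown because they hold CArG boxes, the element that the SRF protein itself recognises. They lie on the minus strand at chr17:46556163-46556412, and the capitals mark perfect CArG boxes.
Srf: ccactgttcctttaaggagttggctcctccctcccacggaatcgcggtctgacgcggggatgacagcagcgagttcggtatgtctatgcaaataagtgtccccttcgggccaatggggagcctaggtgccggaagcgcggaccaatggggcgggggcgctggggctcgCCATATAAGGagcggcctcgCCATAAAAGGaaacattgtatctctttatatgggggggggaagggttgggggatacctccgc
The 2 boxes begin 82 and 62 bases before the start. Among all 32851 windows of the same length, 535 (1.63%) held a perfect CArG box on either strand. The windows of *Mkl1*, *Mkl2*, *Yap1*, *Wwtr1*, *Tead2* and *Tead3* held none.

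The TEAD core CATTCC, searched on both strands (GGAATG on the other), was present in at least 1 window of *Mkl2*, *Yap1*, *Wwtr1* and *Tead3*. The windows of starts 1 and 2 of *Mkl2* and of start 3 of *Tead3* held none. The windows of starts 1 and 2 of *Wwtr1* hold the same site. Over all promoters, 4817 (14.7%) of the 32851 windows held the core. That share is per window, so it cannot be set against a count of genes that have several windows. The sites of the YAP-side genes are shown with the core in capitals, read along each gene's own strand. They are at chr9:8004725-8004744, chr3:57576034-57576053, chr17:28350975-28350994, chr17:28350711-28350730, chr17:28350702-28350721 and chr17:28350586-28350605 in this order, all on the minus strand.
Yap1: gtctgcaGGAATGtagcgac
Wwtr1: actcaaaGGAATGcagatag
Tead3, first start: cgagcgaGGAATGgggtgcg
Tead3, second start: ccgggctCATTCCgtacatt
Tead3, second start: ttccgtaCATTCCggccatc
Tead3, second start: agcccggGGAATGcaactcg
The site of *Yap1* begins 141 bases before its start and that of *Wwtr1* 136 bases before its first listed start. No CATTCC lay in the *Srf*, *Mkl1* or *Tead2* windows. These matches describe letters only, and binding was not measured here.

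Across the 10 regulators the log2 fold changes with TGFβ were at most 0.34 in size, apart from *Tead4* (0.73) and *Myocd* (0.76). *Srf*, *Wwtr1*, *Tead3* and *Tead4* were called higher, *Yap1* was called lower, and *Myocd*, *Mkl1*, *Mkl2*, *Tead1* and *Tead2* were not called. Thus 5 of 10 were called, against 40.7% of all genes tested. Of the 10, 4 were called higher, where 20.5% of all genes were, and 1 was called lower, where 20.1% of all genes were. In 8 of 10 the libraries of the groups did not overlap, which held for 53.3% of all genes tested. The median log2 fold change was 0.13 over the regulators and -0.00 over all genes tested, and the median absolute change was 0.15 and 0.21, respectively. Where groups of 3 libraries lie apart, the two-sided exact permutation test gives p = 0.1, the smallest it can reach.

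**Figure D1:**
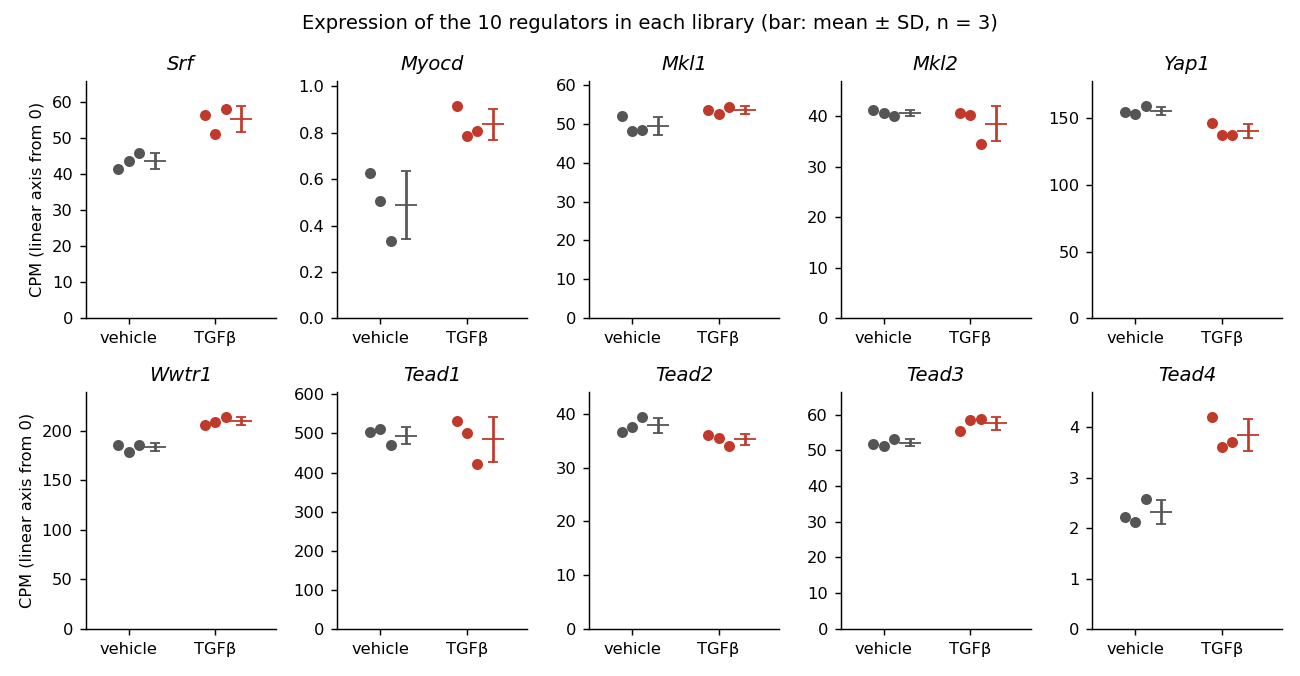
Expression of each of the 10 regulators in CPM (linear axes from 0, a separate scale for each gene) in the 3 vehicle (grey) and 3 TGFβ (red) libraries, left to right as A, B and C; the bar beside the points is the mean ± SD (n = 3). The TGFβ libraries lie wholly above vehicle for *Srf*, *Myocd*, *Mkl1*, *Wwtr1*, *Tead3* and *Tead4*, wholly below for *Yap1* and *Tead2*, and overlap for *Mkl2* and *Tead1*.

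*Srf* (ENSMUSG00000015605), the DNA-binding factor of its system, rose with TGFβ. The gene lies on the minus strand at chr17:46548329-46556175 (GRCm38, GENCODE M21). The promoter boxes shown above were read along the same strand and lie outside this interval, before the start. Its level was 41.4, 43.7 and 45.8 CPM in vehicle libraries A, B and C and 56.4, 51.2 and 58.1 CPM in the TGFβ libraries. The lowest TGFβ library, B, still lay above the highest vehicle library. The means were 43.6 ± 2.17 CPM (SD, n = 3) and 55.2 ± 3.57 CPM (SD, n = 3), a log2 fold change of 0.34 (SE 0.06, 95% interval 0.20 to 0.48). By edgeR's quasi-likelihood test the adjusted p was 0.00332, and the call held under each other tool, scaling and filter and without any 1 library, with a log2 fold change between 0.29 and 0.39. Of all genes tested, 32.2% had a larger absolute change.

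*Myocd* (ENSMUSG00000020542, minus strand, chr11:65176561-65269989), the founding coactivator of SRF in heart and smooth muscle, was close to the limit of detection. It had 10 to 25 reads per library, which gave 0.628, 0.506 and 0.335 CPM with vehicle and 0.914, 0.788 and 0.807 CPM with TGFβ. All 3 TGFβ libraries exceeded the highest vehicle library. The log2 fold change of 0.76 (SE 0.26, 95% interval 0.15 to 1.37) had the largest size and the widest interval of the 10, and it was not called (adjusted p = 0.0521, edgeR's quasi-likelihood test). It was called with limma-voom (adjusted p = 0.0498) and without vehicle library A (adjusted p = 0.0377, log2 fold change 0.98). At this depth a change of *Myocd* could neither be shown nor dismissed.

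The myocardin-related factors, which had far more reads than *Myocd* in these cells, moved little. *Mkl1* (ENSMUSG00000042292, minus strand, chr15:81012281-81190757) was at 52.1, 48.0 and 48.3 CPM with vehicle and at 53.6, 52.4 and 54.3 CPM with TGFβ. The groups did not overlap, yet the highest vehicle library, A, lay just under the lowest TGFβ library. The log2 fold change was 0.11 (SE 0.05, 95% interval 0.01 to 0.22, edgeR quasi-likelihood adjusted p = 0.087), and it became 0.15 with an adjusted p of 0.039 without vehicle library A. *Mkl1* shares 10 exon bases with *Sgsm3* on the opposite strand, and *Sgsm3* has 33.0% as many counts as *Mkl1*. Whether the counting used strand is not given in the sources used here.

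*Mkl2* (ENSMUSG00000009569, plus strand, chr16:13256481-13417529) was at 41.2, 40.6 and 40.1 CPM with vehicle and at 40.7, 40.3 and 34.5 CPM with TGFβ. Only TGFβ library C stood apart from the other 5, and the groups overlapped. The log2 fold change was -0.08 (SE 0.07, 95% interval -0.23 to 0.08, adjusted p = 0.39, edgeR's quasi-likelihood test), and *Mkl2* was called under none of the alternatives. It rested on single libraries, at -0.01 without TGFβ library C and -0.12 without TGFβ library A.

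*Yap1* and *Wwtr1*, paralogous coactivators that both lack a DNA-binding domain, went in opposite directions. *Wwtr1* (ENSMUSG00000027803, minus strand, chr3:57455649-57575910) was at 185, 178 and 186 CPM with vehicle and at 206, 208 and 214 CPM with TGFβ. Its groups were well apart, with means of 183 ± 4.05 CPM and 209 ± 4.02 CPM (SD, n = 3). The log2 fold change was 0.19 (SE 0.04, 95% interval 0.10 to 0.28, edgeR quasi-likelihood adjusted p = 0.0059), and the rise was called under each other tool, scaling and filter and without any 1 library.

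*Yap1* (ENSMUSG00000053110, minus strand, chr9:7931999-8004596) was at 155, 153 and 159 CPM with vehicle and at 146, 137 and 137 CPM with TGFβ. Every TGFβ library lay below every vehicle library, and the means were 156 ± 3.06 CPM and 140.4 ± 5.07 CPM (SD, n = 3). The fall of -0.15 in log2 fold change (SE 0.04, 95% interval -0.25 to -0.05) reached an edgeR quasi-likelihood adjusted p of 0.0239. The direction held throughout but the call was less secure than that of *Wwtr1*. The adjusted p was 0.0521 without a filter on low counts, and 0.0538, 0.0564 and 0.0697 without vehicle library A, B or C. It was 0.0778 without TGFβ library B and 0.0501 without TGFβ library C.

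Of the 4 TEAD factors, which provide the DNA binding for YAP and TAZ, the least abundant changed most. *Tead4* (ENSMUSG00000030353, minus strand, chr6:128224288-128300823) was at 2.23, 2.12 and 2.58 CPM with vehicle and at 4.20, 3.62 and 3.72 CPM with TGFβ. The lowest TGFβ library was well above the highest vehicle library, on 63 to 115 reads per library. The log2 fold change was 0.73 (SE 0.14, 95% interval 0.42 to 1.05, edgeR quasi-likelihood adjusted p = 0.00399). The rise was called under each other tool, scaling and filter and without any 1 library, with a log2 fold change from 0.66 to 0.82. Among all genes tested, 12.04% had a larger absolute change.

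*Tead3* (ENSMUSG00000002249, minus strand, chr17:28331671-28350817) was at 51.8, 51.2 and 53.2 CPM with vehicle and at 55.5, 58.4 and 58.6 CPM with TGFβ. The groups did not overlap, and the distance between them was small beside that of *Tead4*. Its log2 fold change of 0.14 (SE 0.04, 95% interval 0.05 to 0.24) reached an edgeR quasi-likelihood adjusted p of 0.0227. The call was lost with DESeq2 (adjusted p = 0.093) and without vehicle library A (0.0662), vehicle library B (0.0862), TGFβ library B (0.0888) or TGFβ library C (0.0673).

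*Tead1* (ENSMUSG00000055320, plus strand, chr7:112679318-112906807), the TEAD factor with the most reads, was at 503, 512 and 469 CPM with vehicle and at 531, 502 and 421 CPM with TGFβ. The TGFβ libraries spread on both sides of the vehicle libraries, with C the lowest. The log2 fold change was -0.03 (SE 0.09, 95% interval -0.23 to 0.17, adjusted p = 0.811, edgeR's quasi-likelihood test) and turned to 0.06 without TGFβ library C. *Tead2* (ENSMUSG00000030796, plus strand, chr7:45215753-45233644) was at 36.7, 37.6 and 39.4 CPM with vehicle and at 36.1, 35.6 and 34.1 CPM with TGFβ. All its TGFβ libraries lay below vehicle by a narrow margin, and the log2 fold change of -0.10 (SE 0.05, 95% interval -0.21 to 0.01) was not called (adjusted p = 0.117, edgeR's quasi-likelihood test) there or under any alternative. *Tead2* shares 13 exon bases with *Cd37* on the opposite strand, which has 2.85% as many counts.

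**Figure D2:**
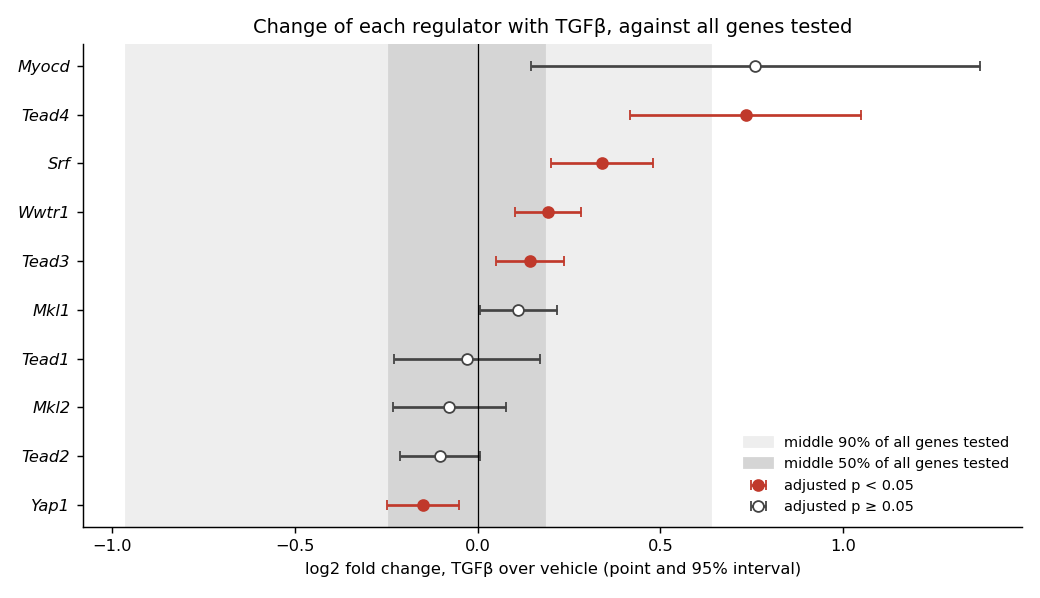
Log2 fold change (TGFβ over vehicle) of each regulator, with its 95% interval, in order of size; filled red points passed an adjusted p of 0.05 and open points did not. The shaded bands hold the middle 50% (-0.24 to 0.18) and the middle 90% (-0.96 to 0.64) of all 14334 genes tested; *Myocd* (0.76) and *Tead4* (0.73) lie outside the wider band.

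To set genes of different length side by side, CPM was divided by the length of each gene's merged exons in kilobases. On this scale *Wwtr1* (38.3 ± 0.848 CPM per kb, SD, n = 3) and *Tead1* (36.4 ± 1.64) had the highest levels with vehicle, and their libraries overlapped. *Yap1* (16.8 ± 0.330) and *Srf* (15.1 ± 0.751) followed, each apart from its neighbours. *Mkl1* (8.09 ± 0.371), *Tead2* (7.92 ± 0.290) and *Tead3* (7.75 ± 0.148) overlapped with each other. *Mkl2* (4.52 ± 0.0634), *Tead4* (0.643 ± 0.0665) and *Myocd* (0.0762 ± 0.0229) closed the order.

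With TGFβ, *Wwtr1* (43.8 ± 0.841 CPM per kb, SD, n = 3) no longer overlapped with *Tead1* (35.7 ± 4.20). *Srf* (19.1 ± 1.23) stood above *Yap1* (15.2 ± 0.548), the reverse of their order with vehicle. *Mkl1* (8.74 ± 0.161) and *Tead3* (8.57 ± 0.259) overlapped, and *Tead2* (7.37 ± 0.215) lay below both. *Mkl2* (4.28 ± 0.384), *Tead4* (1.07 ± 0.0872) and *Myocd* (0.130 ± 0.0106) were again the lowest. The order of levels depended on the length used: per kilobase of the longest transcript, *Tead1* (49.6 with vehicle, 48.6 with TGFβ) was above *Wwtr1* (39.0 and 44.6) in both groups. On that scale *Yap1* (29.5 and 26.6) was also above *Srf* (16.7 and 21.1) in both. *Tead3* (15.1 and 16.7) was there above *Mkl1* (11.3 and 12.2) and *Tead2* (11.2 and 10.4).

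The balance within each set of paralogs was compared by the share of each member in the summed level per kb of merged exons, in 6 comparisons. The share of *Wwtr1* RNA was higher in each TGFβ library than in any vehicle library. *Wwtr1* accounted for 69.8%, 69.3% and 69.3% of *Yap1* plus *Wwtr1* in the vehicle libraries and for 73.2%, 74.6% and 75.1% in the TGFβ libraries. The groups were apart (exact permutation test, two-sided, p = 0.1, adjusted p = 0.2 over the 6 shares), and the design allows no smaller p. With the longest transcript as length the mean share was 57.0% with vehicle and 62.6% with TGFβ. Summed, they reached 55.1 ± 1.13 CPM per kb in vehicle and 59.0 ± 0.549 CPM per kb in TGFβ libraries (SD, n = 3), without overlap.

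*Tead4* supplied 1.17%, 1.10% and 1.39% of the summed TEAD level with vehicle and 2.08%, 1.86% and 2.16% with TGFβ. These groups were also apart (exact permutation p = 0.1, adjusted p = 0.2), while *Tead4* remained the smallest contributor in each library. *Tead1* contributed the most, with 69.1 ± 1.60% and 67.6 ± 2.58% (SD, n = 3, exact permutation p = 0.5). The shares of *Tead2*, 15.02 ± 0.853% and 14.0 ± 0.757% (SD, n = 3, exact permutation p = 0.3), and of *Tead3*, 14.7 ± 0.615% and 16.3 ± 1.76% (SD, n = 3, exact permutation p = 0.2), overlapped between groups. With the longest transcript as length, the mean share with vehicle and TGFβ was 14.6% and 13.5% for *Tead2* and 19.7% and 21.8% for *Tead3*. The summed TEAD level overlapped between vehicle (52.8 ± 1.18 CPM per kb) and TGFβ (52.7 ± 4.27 CPM per kb, both SD, n = 3). *Mkl2* made up 35.8 ± 0.777% of the myocardin-related factors with vehicle and 32.8 ± 2.32% with TGFβ (SD, n = 3, exact permutation p = 0.1, adjusted p = 0.2), without overlap. The difference of -2.99 percentage points became -1.65 without TGFβ library C. Leaving out that library also took the difference in share from -1.46 to -0.0219 points for *Tead1* and from 1.64 to 0.701 points for *Tead3*.

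**Figure D3:**
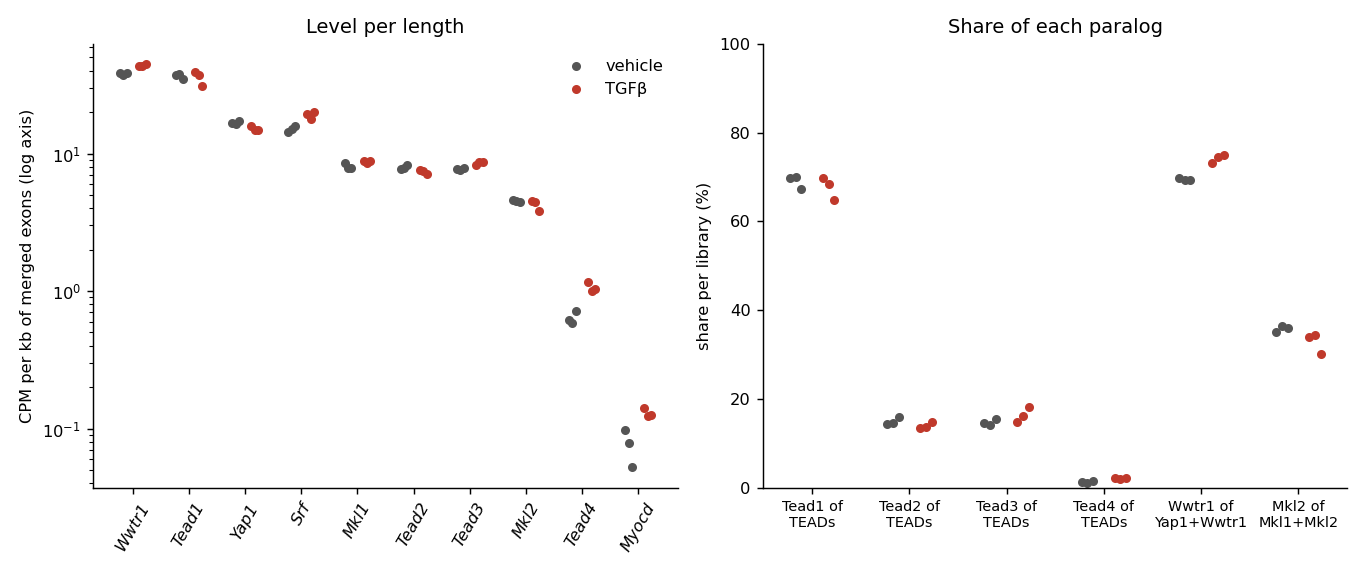
Left, level of each regulator in CPM per kb of merged exons (log axis) in the vehicle (grey) and TGFβ (red) libraries, from *Wwtr1* down to *Myocd*; right, share (%) of each paralog in the summed level of its family, 1 point per library. The *Wwtr1* share lies between 69.3% and 69.8% with vehicle and between 73.2% and 75.1% with TGFβ, and *Tead4* stays near the bottom with 1.10% to 2.16%.

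Genes that act with or downstream of these regulators were followed in 7 lists of 124 genes in all. Each list is read beside the 40.7% of all genes that were called and the median log2 fold change of -0.00 over all genes. The lists of contractile targets and of immediate-early genes, both drawn up as SRF targets, lay on opposite sides of that median. The dependence of their genes on SRF was not tested.

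In the list of MRTF-SRF targets, which holds genes of the contractile apparatus and the cytoskeleton, 20 of 25 genes were called higher, 1 lower and 4 were not called. Its median log2 fold change was 0.47, and without *Srf*, itself a member of the list, 19 of 24 were called higher with a median of 0.52. *Acta2*, smooth muscle actin, was at 1497, 1269.5 and 1231 CPM with vehicle and at 2801, 2688 and 2662 CPM with TGFβ. All TGFβ libraries were far above all vehicle libraries, and the log2 fold change was 1.03 (SE 0.08, adjusted p = 6.93e-05, edgeR's quasi-likelihood test). *Cnn1*, the actin-binding protein calponin, had the largest change, from 10.6 ± 1.54 to 38.7 ± 6.95 CPM (SD, n = 3, log2 fold change 1.86, SE 0.15). *Itga5*, a fibronectin receptor subunit, rose by 1.15 (SE 0.10) and *Tagln*, transgelin, by 0.97 (SE 0.08) on the log2 scale. Of the 75-base windows of *Tagln*, 40.9% also occur in transcripts of other genes, so its value is uncertain. *Fhl1*, a LIM-domain protein of striated muscle, fell by 0.77 (SE 0.07), and *Vcl*, the focal adhesion protein vinculin, was at 434 ± 7.5 and 416 ± 20.5 CPM (SD, n = 3) and was not called. *Vcl* shares 38.9% of its windows with other genes.

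Markers of other contractile cells moved in these libraries too. Of 6 smooth muscle markers 4 were called higher and none lower, and their summed level was 146 to 169 CPM with vehicle and 188 to 260 CPM with TGFβ. Of these 6 markers, 5 are also in the MRTF-SRF target list, and *Myh11*, the smooth muscle myosin, was not called (log2 fold change -0.26). Of 5 pericyte markers 1 was called higher and 1 lower, and their summed level was 224 to 255 CPM with vehicle and 115 to 142 CPM with TGFβ. This sum followed *Notch3*, which fell by 1.85 on the log2 scale (SE 0.10). *Cspg4* rose by 1.45 (SE 0.18), the other 3 were not called, and the sum without *Notch3* was 30.4 to 46.6 CPM with vehicle and 52.5 to 93.5 CPM with TGFβ. None of the 7 endothelial (446 to 692 CPM with vehicle, 409 to 566 CPM with TGFβ) or 5 mesothelial markers (24.6 to 83.7 CPM and 16.1 to 41.6 CPM) was called, and of 6 leukocyte markers (248 to 358 CPM and 213 to 317 CPM) 1 was called lower. No listed marker was at 0 in all libraries. The part of such cells in the results above was not tested.

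Genes of the TCF-SRF list, immediate-early genes listed as induced by serum through SRF and the ELK factors, were mostly lower with TGFβ. Of the 12 tested, 8 were called lower, 1 higher and 3 were not called, with a median log2 fold change of -0.78. *Fos*, a subunit of AP-1, was at 217, 174 and 172 CPM with vehicle and at 76.5, 53.6 and 55.5 CPM with TGFβ. The groups were widely apart, and the log2 fold change was -1.60 (SE 0.15, adjusted p = 0.000166, edgeR's quasi-likelihood test). *Fosb*, its close relative, fell by 1.76 (SE 0.13), *Egr1*, a zinc-finger factor, by 0.98 (SE 0.12) and *Junb*, a partner of FOS, by 0.59 (SE 0.07) on the log2 scale. The exception was *Ier3*, which was called higher with a log2 fold change of 0.32 (SE 0.08). The median was between -0.95 and -0.66 with 1 library left out.

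In the list of other SRF partners most genes were not called. Of 11 genes none was called higher, 2 were called lower and 9 were not called, with a median log2 fold change of -0.14. The median depended on single libraries, at -0.07 without vehicle library A, -0.09 without vehicle library C and -0.03 without TGFβ library B. *Foxo4*, a forkhead factor that can repress myocardin, fell by 0.32 (SE 0.06) on the log2 scale. The other gene called lower, *Mamstr*, named here after its values were seen, was at 1.15 ± 0.104 and 0.453 ± 0.0331 CPM (SD, n = 3, log2 fold change -1.34, SE 0.20). Its fall was the largest change in the list, and whether *Mamstr* acts with SRF in these cells was not tested. *Elk3*, a ternary complex factor, had a log2 fold change of 0.23 (SE 0.11), *Gata4* of -0.14 (SE 0.08) and *Scai*, a repressor of the myocardin-related factors, of -0.02 (SE 0.10), and these 3 were not called.

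Within the Hippo kinase cascade, 8 of 27 genes were called higher, 10 lower and 9 were not called, with a median log2 fold change of -0.09 that was -0.12 without TGFβ library B. The core kinases moved little. *Lats1* rose by 0.19 (SE 0.06) and *Stk4* by 0.21 (SE 0.05) on the log2 scale, whereas *Lats2* (-0.04, SE 0.04), *Stk3* (-0.09, SE 0.06) and *Nf2*, the upstream activator merlin (0.09, SE 0.04), were not called. The scaffold *Sav1* fell by 0.47 (SE 0.04). Reads of *Lats2* and *Sav1* are uncertain, since 56.3% and 37.3% of their 75-base windows occur in other genes, and without these and *Rassf1* (67.5%) the list gave 8 higher and 9 lower of 24. By the naming rule given below, the called genes with the largest falls were *Rassf2* and *Tnik*, and those with the largest rises were *Stk38l* and *Wwc2*. *Rassf2*, a Ras-association protein that binds the MST kinases, fell by 1.52 (SE 0.10), from 18.8 ± 2.41 to 6.56 ± 0.213 CPM (SD, n = 3). *Tnik*, a kinase of the germinal centre family, fell by 1.04 (SE 0.13), while *Stk38l*, a kinase related to LATS, rose by 0.80 (SE 0.12) and the scaffold *Wwc2* by 0.46 (SE 0.06).

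Genes whose products bind YAP and TAZ or govern their turnover were mostly not called, 15 of 22, with 5 higher and 2 lower, and the median log2 fold change was 0.03. *Ajuba*, a LIM protein that restrains the LATS kinases, went from 46.4 ± 2.32 to 79.7 ± 5.57 CPM (SD, n = 3, log2 fold change 0.78, SE 0.06), and the giant cadherin *Fat1* rose by 0.47 (SE 0.11). *Amot*, the angiomotin that holds YAP at junctions, fell by 0.62 (SE 0.12) and the LIM protein *Limd1* by 0.21 (SE 0.04). *Amotl1* (log2 fold change 0.14, SE 0.05) and *Ptpn14*, a phosphatase that binds YAP (0.02, SE 0.12), were not called.

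Cofactors of TEAD other than YAP and TAZ showed small shifts in 1 direction. Of the 6 tested, 5 were called lower and none higher, with a median log2 fold change of -0.18. *Ncoa1* (-0.27, SE 0.07) and *Ncoa2* (-0.25, SE 0.08), steroid receptor coactivators that TEAD can recruit, and *Vgll4*, a competitor of YAP (-0.17, SE 0.05), were among them. *Vgll3*, the vestigial-like factor with the most reads, was at 299 ± 8.65 and 295 ± 13.9 CPM (SD, n = 3) and was not called. These calls were not stable, with 3 called by DESeq2, 3 without a filter on low counts, 2 without vehicle library A, 0 without vehicle library B, 2 without TGFβ library A and 3 without TGFβ library B.

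The YAP-TEAD target signature did not move as a block. Of its 22 genes 7 were called higher, 4 lower and 11 were not called, with a median log2 fold change of -0.01. The median had no stable sign, at -0.05 without TGFβ library A, -0.03 without vehicle library C and 0.07 without TGFβ library C. *Ctgf*, a matricellular growth factor, was at 1139, 988 and 1178 CPM with vehicle and at 3132, 2827 and 3298 CPM with TGFβ. The groups were far apart, and the log2 fold change was 1.49 (SE 0.09, adjusted p = 2.03e-05, edgeR's quasi-likelihood test). Whether *Ctgf* rose through YAP and TEAD or by another route from TGFβ was not tested. *Cyr61*, its close relative and an equally common readout, was at 960, 785 and 876 CPM with vehicle and at 1113, 882 and 1036 CPM with TGFβ. Its groups overlapped and it was not called (log2 fold change 0.21, SE 0.10, adjusted p = 0.14, edgeR's quasi-likelihood test).

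Other genes of the signature were as divided. *Nt5e*, an ecto-nucleotidase, rose by 1.28 (SE 0.16), *Ankrd1*, an ankyrin-repeat protein, by 0.97 (SE 0.11) and *Axl*, a receptor tyrosine kinase, by 0.21 (SE 0.05) on the log2 scale. *Tgfb2*, a ligand of the TGFβ family, fell by 0.45 (SE 0.09) and *Asap1*, a GTPase-activating protein, by 0.44 (SE 0.06). *Amotl2*, which feeds back on YAP, had a log2 fold change of -0.10 (SE 0.08) and was not called. Of the signature genes, 3 are also in the Hippo or YAP-binding lists.

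**Figure D4:**
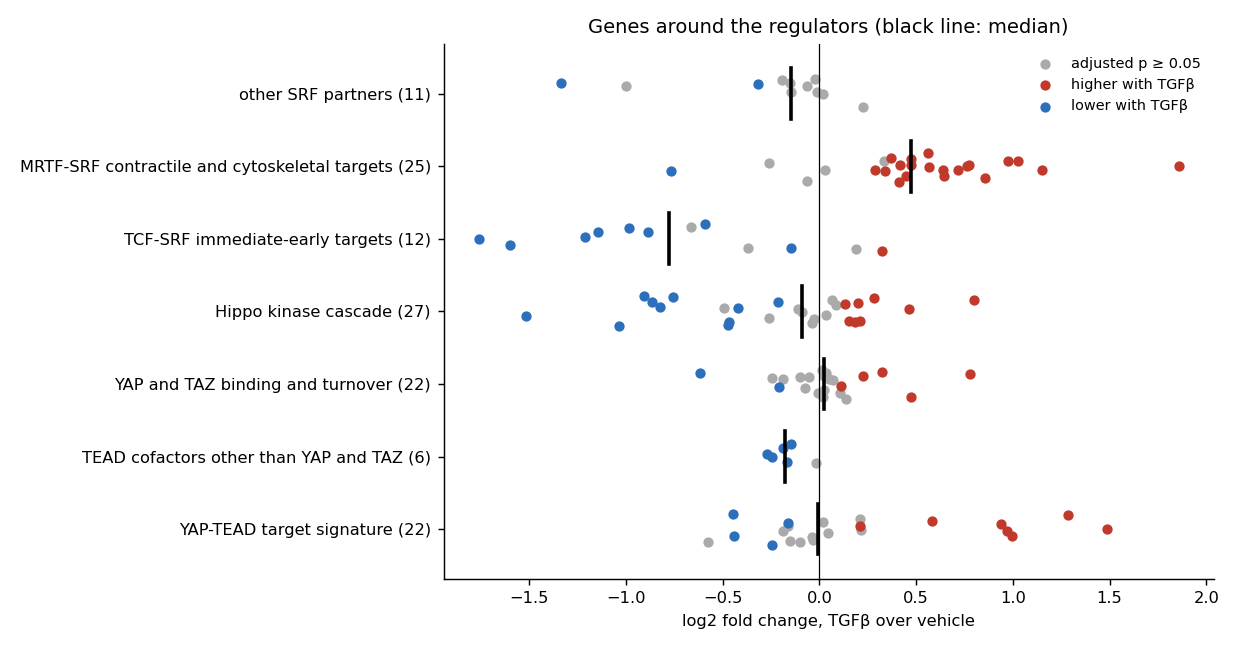
Log2 fold change (TGFβ over vehicle) of the genes of the 7 lists around the regulators, with the number tested in brackets; red points were called higher, blue lower and grey not called, and the black bar is the median of the list. The MRTF-SRF targets centre at 0.47 and the TCF-SRF immediate-early genes at -0.78, while the YAP-TEAD signature centres at -0.01 with genes from -0.57 to 1.49.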

How the data were processed

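RNA libraries were stranded and poly(A)-selected, and were read from 1 end over 75 bases. Per the labels the authors worked with mm10 and DESeq2. The aligner, counting tool, gene annotation and use of strand are not given in the sources used here. The deposited table holds whole-number counts per gene and library without normalization, and all its per-sample columns were used. It also holds the authors' mean, fold change, p-value and adjusted p columns, which were not used.

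Counts were analysed with edgeR 4.0.16 (R 4.3.3): filterByExpr, TMM factors and the quasi-likelihood test of TGFβ against vehicle over 14334 genes, with Benjamini-Hochberg adjustment over all of them. The biological coefficient of variation was 7.97%. The depth of 27851677 to 31072338 counts per library leaves counting error small except for *Myocd* and *Tead4*. No replicate pair agreed within counting noise (chi-square per gene 7.95 to 27.1). The p-values of this test set the difference between the groups against the spread between libraries within a group. The animals behind each library are not given. The SE is the ratio of the log2 fold change to the root of the F statistic.

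Identifiers of 25086 genes matched GENCODE M21, which gave coordinates and exon lengths. Shared reads were gauged by 75-base windows of the longest transcript. The edgeR, limma-voom and DESeq2 fits were run first on simulated data. Alternatives were DESeq2 1.42.0 and its size factors, upper quartile scaling, limma-voom (limma 3.58.1), other filters and thresholds, and leaving out each library.

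The members and gene lists were chosen with earlier results of these data known. Named genes are the members, the common readouts of each list, and up to 2 called genes with the largest rise and fall in each list, provided that groups were apart and the mean reached 1 CPM. Single cell type markers were named after their values were seen. Some results that this rule takes in are not reported here.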

Additional observations from a re-analysis of the deposited data

How the results depend on the processing

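No paired analysis was possible because the count columns carry no replicate number. *Srf*, *Wwtr1* and *Tead4* kept their direction and their call under each tool, scaling, filter and left-out library. With an adjusted p of 0.01, 3 regulators and 3595 genes in all were called, and with a log2 fold change beyond 1, 0 regulators and 971 genes. Leaving out 1 library gave 3 to 5 called regulators, and the cause of this and of the next values was not tested. In log2 fold change, *Yap1* lost its call without a filter on low counts (-0.14) and ranged from -0.18 to -0.13 without 1 library. *Tead3* lost its call with DESeq2 (0.14) and ranged from 0.12 to 0.17. *Myocd* gained a call with limma-voom (0.79) and ranged from 0.55 to 0.98, and *Mkl1* ranged from 0.0904 to 0.15. *Tead1* ranged from -0.10 to 0.0554, the latter without TGFβ library C. Other SRF partners had a median of -0.0709 with a filter of 1 CPM in 3 libraries and of -0.17 to -0.0269 without 1 library. With upper quartile scaling the median was 0.0040 for YAP and TAZ binding. Without 1 library, medians ran from -0.948 to -0.665 (TCF-SRF), -0.117 to -0.0623 (Hippo kinases) and -0.0548 to 0.067 (YAP-TEAD signature). TEAD cofactors had 3 called genes with DESeq2, 3 without a filter and 0 to 4 without 1 library. Depth limits *Myocd*, with 10 to 25 reads per library.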
